A study of Mus musculus with 14 samples.

Results

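The genes described here encode the carriers that take up small peptides and amino acids in the gut. They were chosen by name, as 10 genes: Slc15a1, Slc6a19, Slc6a20a, Slc3a1, Slc3a2, Slc7a5, Slc7a7, Slc7a8, Slc7a9 and Slc1a5. The choice was made with earlier results of these data known. A carrier was measured by the probe set annotated to its symbol alone, and 9 of the 10 had such a probe set, 1 each, out of 12394 genes measured. Slc6a19, a brush border carrier of neutral amino acids, is not analysed here.

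Small intestinal RNA from mice was profiled on 14 arrays, which fall into 4 groups. Villi, the projections covered mainly by absorptive enterocytes, had 3 arrays (samples V12, V41 and V275). Crypts, the pockets between them that hold stem, dividing and Paneth cells, also had 3 (samples K12, K21 and K41). Each adult sample came from a C57BL/6 mouse aged 12 weeks. Endoderm, the future epithelium, and mesenchyme, the future connective tissue and muscle, were separated from collagenase-digested intestine at embryonic day 12 (E12) and pooled, with 4 arrays for each layer. No strain is given in the labels for the fetuses, and no genotype or treatment was named for any group. An E12 pair pooled from 35 fetuses stands in the first value table with the 6 adult arrays. The other 3 E12 pairs, each from 10 to 12 fetuses, form the second table. The tables carry different platform labels and were normalized apart, so levels are compared only within a table. All levels are log2 signals, on which a step of 1 is a doubling. The labels do not say which layers of the bowel wall came along with crypts and villi. In bulk RNA, fewer cells of a type and less RNA per cell cannot be told apart.

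Dietary protein is cut by pancreatic and brush border peptidases into peptides and free amino acids. Enterocytes take these up across the apical membrane with proton- and sodium-coupled carriers and with exchangers, cut peptides further in the cytosol, and release amino acids through basolateral exchangers. Several of the exchangers are pairs of a heavy chain, which brings the pair to the membrane, and a light chain, which transports. Slc3a1 is the heavy chain of Slc7a9 at the brush border, and Slc3a2 that of Slc7a5, Slc7a7 and Slc7a8, mostly at basolateral membranes.

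The labelled tissues were set against lists of marker genes. The mean log2 signal of 5 epithelial markers was 11.5 to 12.0 in adult samples of either kind. It was 11.6 to 11.8 in endoderm and 6.50 to 7.05 in mesenchyme of the second table. The mean of 5 enterocyte markers was 12.8 to 13.1 in villi and 8.21 to 9.04 in crypts. That of 3 Paneth cell markers was 8.43 to 9.96 in villi and 12.9 to 13.1 in crypts, so villus samples still carried some Paneth cell signal. T cell markers were higher in villi, where the mean of the list was 8.66 to 9.70, against 6.42 to 6.63 in crypts, and 5 of 5 were called higher. Of these, Cd3g, a subunit of the T cell receptor complex, was dim in all 3 crypt arrays. In the lone E12 endoderm of the first table, the mean of 6 mesenchyme markers was 7.48, against 10.4 in its mesenchyme partner.

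Promoter sequences were matched by symbol in a RefSeq table of the mouse build GRCm38.p6, which held 13 starts of 8 of the 10 carriers, Slc7a5 and Slc1a5 being the exceptions. Those of Slc15a1, Slc6a20a and Slc3a1 are shown because these carriers combined a high villus signal with an E12 signal under the filter on dim genes, and that of Slc7a8 because its villus signal varied most between samples. Each is the 250 bases before the start, read 5′ to 3′ on the gene's strand, with motif matches in capitals.
Slc15a1, chr14:121505255-121505504, minus strand: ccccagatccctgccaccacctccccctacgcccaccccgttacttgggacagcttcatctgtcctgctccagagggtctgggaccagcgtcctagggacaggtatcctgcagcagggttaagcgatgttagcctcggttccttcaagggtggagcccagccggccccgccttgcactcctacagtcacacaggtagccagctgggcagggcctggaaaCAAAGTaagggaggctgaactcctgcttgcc
Slc6a20a, chr9:123678833-123679082, minus strand: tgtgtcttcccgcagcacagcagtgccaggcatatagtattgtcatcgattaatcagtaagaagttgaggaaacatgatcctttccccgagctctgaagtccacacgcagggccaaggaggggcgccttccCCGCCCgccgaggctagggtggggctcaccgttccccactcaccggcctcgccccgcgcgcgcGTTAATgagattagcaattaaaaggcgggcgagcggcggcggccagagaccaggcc
Slc3a1, chr17:85028097-85028346, plus strand: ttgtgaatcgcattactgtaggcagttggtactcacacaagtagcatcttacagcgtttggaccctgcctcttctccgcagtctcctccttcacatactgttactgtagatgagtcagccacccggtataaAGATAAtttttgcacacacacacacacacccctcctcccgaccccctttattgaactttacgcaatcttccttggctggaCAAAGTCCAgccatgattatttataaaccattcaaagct
Slc7a8, chr14:54781887-54782136, minus strand: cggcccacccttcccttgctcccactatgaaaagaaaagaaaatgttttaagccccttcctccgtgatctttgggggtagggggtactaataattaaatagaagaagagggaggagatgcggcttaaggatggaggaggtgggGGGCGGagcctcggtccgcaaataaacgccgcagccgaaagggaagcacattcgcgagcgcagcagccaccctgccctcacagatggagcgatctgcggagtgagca
The search covered 8 motifs on both strands. For the hepatocyte nuclear factors, the Hnf1 motif was GTTAAT. The short Hnf4 motif was CAAAGT, and the longer Hnf4 motif CAAAGTCCA contains it. The Cdx motif was TTTATG, the motif of Gata factors was AGATAA, and the GC box bound by Sp1 was GGGCGG. The element of the amino acid response, bound by C/EBP and Atf4, was TGATGNAA, and the E-box motif was CACGTG. CAAAGTCCA was added after these windows were seen. In Slc15a1, CAAAGT lies 31 to 26 bases before the start. In Slc3a1, CAAAGTCCA lies 39 to 31 bases and AGATAA 119 to 114 bases before it. Slc6a20a holds GTTAAT at 56 to 51 bases and GGGCGG on the opposite strand at 119 to 114 bases, and Slc7a8 holds GGGCGG at 107 to 102 bases. Among all 32851 windows of this length, GTTAAT occurs in 6.43%, CAAAGT in 12.6%, CAAAGTCCA in 0.384%, TTTATG in 10.8%, AGATAA in 9.99%, GGGCGG in 32.7%, TGATGNAA in 3.45% and CACGTG in 6.02%. A match of letters is a description and was not tested for binding.

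Villi were first set against crypts, the comparison the series is built on. Of the 9 measured carriers, 5 were higher in villi (Slc15a1, Slc3a1, Slc7a7, Slc7a9 and Slc6a20a), by 5.82-fold to 39.4-fold, and 2 were lower (Slc1a5 and Slc7a5), by 5.64-fold and 3.01-fold. Slc3a2 and Slc7a8 did not pass the test. A gene was called at a limma adjusted p under 0.05 over all 9962 genes tested, of which 16.9% were called higher and 15.0% lower. The arrays of the 2 groups did not overlap for 7 of the 9 carriers, against 47.8% of all genes. The median difference was 2.54 over the carriers and -0.00089 over all genes. Because the carriers were chosen with earlier results of these data known, these counts and this median are descriptions. All 9 carriers passed the filter on dim genes, which was a signal above 5.78 in at least 3 arrays.

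**Figure D1:**
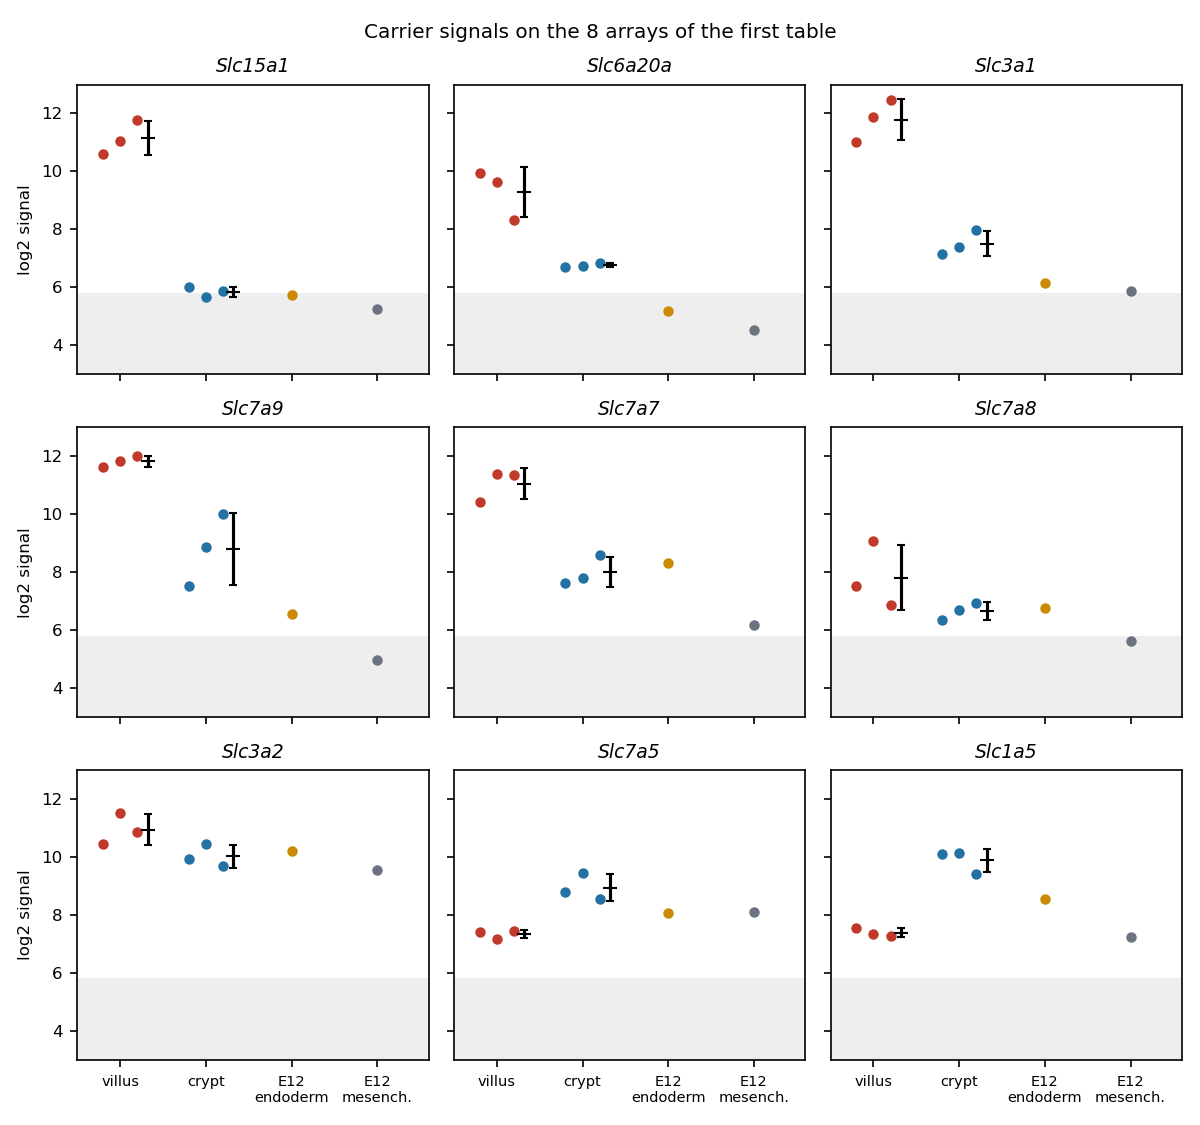
Log2 signal of each measured carrier in villi, crypts, E12 endoderm and E12 mesenchyme (mesench.) of the first table; points are arrays, black bars the mean ± SD of 3 arrays, and grey the range under the 30th percentile of the table. Slc15a1 lies at 10.62 to 11.79 in villi and in or near the grey range in every other group, while Slc7a5 and Slc1a5 are highest in crypts.

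Slc15a1 encodes the proton-coupled carrier of di- and tripeptides at the brush border. Its signal was 10.62, 11.79 and 11.04 in villus samples V12, V41 and V275, against 6.01, 5.66 and 5.89 in crypt samples K12, K21 and K41. All villi stood far above all crypts, and no other carrier differed by more. The difference was 5.30 ± 0.28 (SE, n = 3 each; limma adjusted p = 5.44e-05), or 39.4-fold. The crypt signal sat at the 30th percentile of the arrays, 5.71 to 5.88, so the size of the fold is less certain than its direction. E12 endoderm had 5.74 and E12 mesenchyme 5.27, in the same dim range as crypts.

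Slc6a20a encodes a sodium-coupled carrier of proline and other imino acids. It measured 9.95, 8.32 and 9.64 in villi (samples V12, V41 and V275) and 6.71, 6.73 and 6.85 in crypts. Villus sample V41 was the lowest villus but was still above every crypt, and the crypts differed little among themselves. The difference was 2.54 ± 0.38 (SE, n = 3 each; limma adjusted p = 0.00255), or 5.82-fold. In the E12 pair its signal was 5.18 in endoderm and 4.52 in mesenchyme, both dim. Its paralog Slc6a20b did not pass the test (-0.04, limma adjusted p = 0.868). The Slc6a20b means were 5.98 in villi and 6.03 in crypts, near the dim range, where a difference could be missed. Cross-hybridisation between Slc6a20a and Slc6a20b was not tested.

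Slc3a1 and Slc7a9 form the brush border exchanger that brings in cystine and cationic amino acids, and loss of either causes cystinuria in humans. The heavy chain Slc3a1 had 11.03, 12.46 and 11.89 in villi and 7.14, 7.40 and 7.98 in crypts. The groups were well apart, with a difference of 4.28 ± 0.37 (SE, n = 3 each; limma adjusted p = 0.000331), or 19.5-fold. The light chain Slc7a9 had 11.63, 12.01 and 11.84 in villi, against 7.54, 8.86 and 10.02 in crypts. Villi were close together (SD 0.19) and crypts spread widely (SD 1.24), yet the highest crypt was below the lowest villus. The difference was 3.02 ± 0.54 (SE, n = 3 each; limma adjusted p = 0.00508), or 8.11-fold. It was 2.39 without crypt sample K12 and 3.63 without crypt sample K41, the lowest and highest of the settings tried. In the E12 pair the heavy chain had 6.16 in endoderm and 5.88 in mesenchyme, and the light chain 6.57 and 4.97 in these layers.

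Crypt sample K41 was the highest crypt for Slc3a1, Slc7a9, Slc7a7 and Slc7a8, and crypt sample K12 the lowest. The mean of the enterocyte markers followed the same order, at 8.21, 8.71 and 9.04 in crypt samples K12, K21 and K41. Epithelial markers (11.46, 11.62 and 11.95), macrophage and leukocyte markers (6.67, 6.72 and 6.82) and B and plasma cell markers (6.17, 7.56 and 8.06) did so too. Paneth cell markers (13.10, 13.09 and 12.87) and smooth muscle markers (6.84, 6.77 and 6.68) ran in the opposite order. The remaining lists kept neither order. The part of any of these cell types in the spreads of the carriers was not tested.

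The light chain Slc7a7, which exports cationic amino acids at the basolateral membrane and is defective in lysinuric protein intolerance, had 10.43, 11.35 and 11.38 in villi and 7.64, 7.81 and 8.61 in crypts. All villi were above all crypts, by 3.03 ± 0.34 (SE, n = 3 each; limma adjusted p = 0.000741), or 8.19-fold. E12 endoderm, at 8.30, lay inside the crypt range, and E12 mesenchyme was lower, at 6.19.

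Slc7a8, a basolateral exchanger of neutral amino acids, had 7.52, 6.87 and 9.06 in villi and 6.35, 6.70 and 6.95 in crypts. Villus sample V41 lay among the crypts and villus sample V275 stood above all other arrays. The difference of 1.15 ± 0.50 (SE, n = 3 each) had a 95% interval of -0.02 to 2.32 and did not pass the test (limma adjusted p = 0.123). It became 1.63 without villus sample V41 (limma adjusted p = 0.018) and 0.53 without villus sample V275 (limma adjusted p = 0.201). Among E12 arrays, endoderm had 6.76, inside the crypt range, and mesenchyme 5.63, under the 30th percentile of its array.

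The shared heavy chain Slc3a2 was well above the dim range in every group. It had 10.45, 10.85 and 11.53 in villi, against 9.93, 10.45 and 9.68 in crypts. The lowest villus and the highest crypt met, and the difference was 0.93 ± 0.31 (SE, n = 3 each; 95% interval 0.21 to 1.64), just short of the threshold (limma adjusted p = 0.0536). Without villus sample V12 it was 1.17 and passed (limma adjusted p = 0.0223). It also passed, at the same 0.93, with a filter at the 50th percentile (limma adjusted p = 0.0479), while quantile normalization of the arrays lowered it to 0.55 (limma adjusted p = 0.249). Villus sample V275 was the highest villus for Slc3a2, Slc7a8 and Slc7a7. It was also the highest for the T cell markers, with list means of 8.66, 9.05 and 9.70 in villus samples V12, V41 and V275. Enterocyte markers (12.84, 12.77 and 13.11) and macrophage and leukocyte markers (7.03, 7.04 and 7.19) were highest there too. Epithelial markers were lowest there (11.89, 11.99 and 11.48). The part of any of these cell types in the carrier values was not tested.

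Slc7a5 and Slc1a5 ran the other way. Slc7a5, the light chain that exchanges large neutral amino acids and is abundant in growing cells, had 7.42, 7.43 and 7.18 in villi and 8.79, 9.46 and 8.57 in crypts. Every crypt was above every villus, and the difference was -1.59 ± 0.24 (SE, n = 3 each; limma adjusted p = 0.00245), 3.01-fold lower in villi. Slc1a5, a sodium-dependent exchanger of neutral amino acids and a main entry route for glutamine, had 7.56, 7.27 and 7.34 in villi, against 10.10, 10.13 and 9.42 in crypts. It was 5.64-fold lower in villi, with a difference of -2.50 ± 0.22 (SE, n = 3 each; limma adjusted p = 0.000331). Markers of stem and dividing cells moved with them, with list means of 6.54 to 6.96 in villi and 8.79 to 8.97 in crypts, where 3 of 4 were called lower in villi. Paneth cell markers did so too, with list means of 8.43 to 9.96 in villi and 12.9 to 13.1 in crypts, and 3 of 3 were called lower. The part of these cell types in the fall of Slc7a5 and Slc1a5 was not tested.

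**Figure D2:**
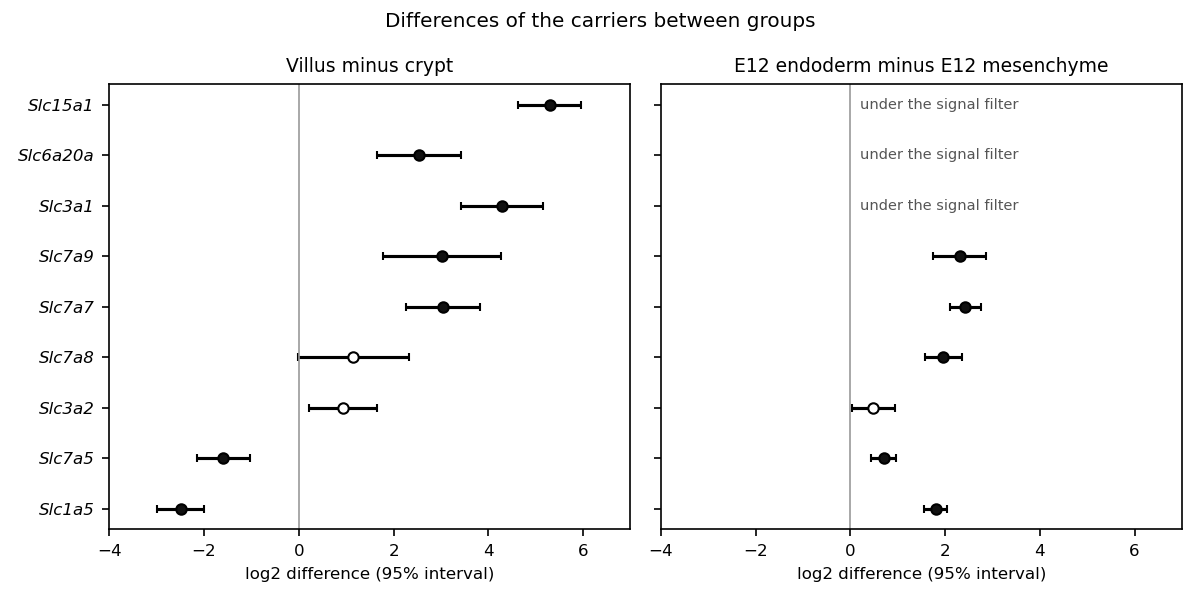
Log2 difference of each carrier, villus minus crypt (left) and E12 endoderm minus E12 mesenchyme (right), with 95% intervals; filled points have a limma adjusted p under 0.05. Slc7a5 and Slc1a5 lie left of 0 between villus and crypt, at -1.59 and -2.50, and right of 0 between the E12 layers, at 0.70 and 1.80.

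The balance of partners within an array was compared as the log2 difference of 2 probe sets, whose value has no meaning of its own but can be set against the same difference in other arrays. Slc3a1 minus Slc3a2, the brush border against the shared heavy chain, was 0.57, 1.61 and 0.35 in villus samples V12, V41 and V275, against -2.78, -3.06 and -1.69 in crypt samples K12, K21 and K41. The means differed by 3.36, and the groups did not overlap. Relative to the light chain Slc7a5, Slc7a9 shifted by 4.61, Slc7a7 by 4.63 and Slc7a8 by 2.75 between villi and crypts, each with no overlap of the groups. Each of these 4 had an exact two-sided permutation p = 0.1 (adjusted 0.114 over 8 such tests), the smallest p that 3 against 3 arrays can give. For Slc7a9 and Slc7a7 against Slc7a5 this outcome was fixed in advance. Every villus was above every crypt for Slc7a9 and Slc7a7 and below every crypt for Slc7a5. These shifts therefore restate the differences of the single genes.

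The E12 layers were compared on the 6 arrays of the second table. Of the 9 measured carriers, 6 passed the filter on dim genes there (a signal above 4.74 in at least 3 arrays), and 5 were higher in endoderm: Slc7a7, Slc7a9, Slc7a8, Slc1a5 and Slc7a5. No carrier was called lower, and all 6 differences were above 0. Of all 9442 genes tested, 27.7% were called higher and 25.4% lower, and the layers did not overlap for 62.0% of genes, against 5 of the 6 carriers. Carriers that pass the filter through their endoderm signal alone, such as Slc7a9, could hardly fail to differ, so the count is a description.

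Slc7a7 had 7.81, 7.61 and 7.51 in endoderm samples 2, 3 and 4, against 4.94, 5.36 and 5.34 in mesenchyme samples 2, 3 and 4. The layers were far apart, by 2.43 ± 0.14 (SE, n = 3 each; limma adjusted p = 1.67e-06), or 5.39-fold. Slc7a9 had 6.98, 6.19 and 5.96 in endoderm and 4.11, 4.23 and 3.86 in mesenchyme, all of the last under the 30th percentile. Its difference was 2.31 ± 0.24 (SE, n = 3 each; limma adjusted p = 7.74e-05).

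Slc7a8 had 7.09, 6.78 and 6.80 in endoderm and 4.76, 4.71 and 5.31 in mesenchyme, a difference of 1.96 ± 0.17 (SE, n = 3 each; limma adjusted p = 2.42e-05). Mesenchyme samples 2 and 3 were under the 30th percentile of their arrays, so the size of this difference is less certain than its direction. The 3 endoderm pools were close together, unlike the 3 villus samples for the same gene. Slc1a5 had 8.14, 7.92 and 7.92 in endoderm, against 6.06, 6.30 and 6.21 in mesenchyme, a difference of 1.80 ± 0.11 (SE, n = 3 each; limma adjusted p = 1.93e-06). Slc7a5 had 7.77, 7.64 and 7.57 in endoderm and 6.75, 7.10 and 7.02 in mesenchyme. Its layers did not overlap either, but the difference was smaller, 0.70 ± 0.12 (SE, n = 3 each; limma adjusted p = 0.00107).

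Slc3a2 had 10.16, 10.46 and 10.24 in endoderm, against 9.36, 10.19 and 9.86 in mesenchyme. Mesenchyme sample 3 lay above endoderm sample 2, and the difference of 0.48 ± 0.20 (SE, n = 3 each) missed the threshold (limma adjusted p = 0.0714). With the replicate number as a block, pairing each endoderm pool with the mesenchyme pool of the same number, the same difference passed (limma adjusted p = 0.018). It also passed without mesenchyme sample 3 (0.68, limma adjusted p = 0.0171). With all 8 E12 arrays of both tables and the table as a block, it passed as well (0.53, limma adjusted p = 0.0237).

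**Figure D3:**
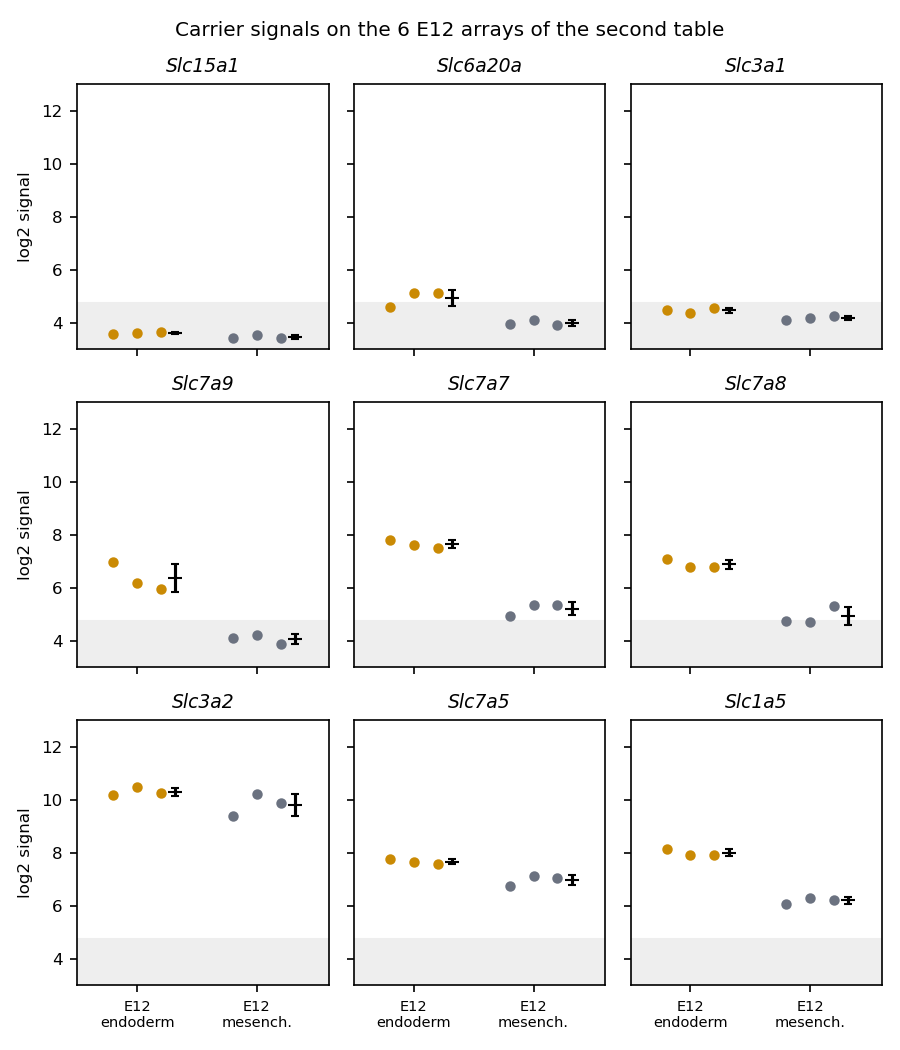
Log2 signal of each measured carrier in E12 endoderm and E12 mesenchyme of the second table; points are arrays, black bars the mean ± SD of 3 arrays, and grey the range under the 30th percentile of that table. Slc15a1 and Slc3a1 stay in the grey range in both layers, while Slc7a7 lies at 7.51 to 7.81 in endoderm and 4.94 to 5.36 in mesenchyme.

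The 3 carriers under the filter were Slc15a1, Slc3a1 and Slc6a20a, all apical, while the apical Slc7a9 passed it through its endoderm signal. Slc15a1 had 3.58 to 3.67 in endoderm and 3.42 to 3.55 in mesenchyme, and Slc3a1 had 4.38 to 4.56 in endoderm and 4.10 to 4.28 in mesenchyme. Both were dim on all 6 arrays. Slc6a20a had 4.61, 5.14 and 5.12 in endoderm, so 2 pools were just above the threshold, and 3.92 to 4.12 in mesenchyme. In a fit without the filter the differences were 0.16 for Slc15a1 (limma adjusted p = 0.169), 0.29 for Slc3a1 (limma adjusted p = 0.031) and 0.96 for Slc6a20a (limma adjusted p = 0.000908), at signals where background takes a large share.

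The pair from 35 fetuses gave the same direction for the 5 called carriers except Slc7a5. Endoderm minus mesenchyme was 2.11 for Slc7a7, 1.60 for Slc7a9, 1.30 for Slc1a5 and 1.13 for Slc7a8, and -0.02 for Slc7a5. Slc3a2 differed by 0.68 in that pair. Within arrays of the second table, Slc7a9, Slc7a7 and Slc7a8 each shifted relative to Slc7a5, by 1.61, 1.73 and 1.26, with no overlap of the layers (exact two-sided permutation p = 0.1, adjusted 0.114). Slc3a1 minus Slc3a2 differed by -0.19 (exact two-sided permutation p = 0.4, adjusted 0.4), with Slc3a1 dim in both layers.

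Adult samples were then set against E12 endoderm in the first table, where endoderm has 1 array, so the spread was pooled over the 4 groups. Villi and crypts share that array, and the values are given side by side. In villi, 5 of 9 carriers were called higher (17.0% of 10082 genes tested) and 1 lower (22.1% of genes). Slc15a1 (5.74) and Slc6a20a (5.18) were under the filter in E12 endoderm, so the villus count is a description. In crypts, 1 of 9 was called higher (8.20% of genes) and 0 lower (15.1% of genes). None of the 3 carriers with a crypt value below 0 passed an unadjusted p under 0.05 either, while 3887 genes did in one direction or the other. The median of all genes was 0.13 in villi and 0.05 in crypts. Of the genes called in crypts, 35.2% were higher, and 46.4% were after quantile normalization.

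Slc3a1 differed from E12 endoderm by 5.64 in villi (limma adjusted p = 0.000203) and by 1.35 in crypts (limma adjusted p = 0.101). Slc15a1 differed by 5.41 in villi (limma adjusted p = 9.58e-05) and by 0.11 in crypts (limma adjusted p = 0.854), where the 95% interval was -0.83 to 1.05. Slc7a9 was 5.26 higher in villi (limma adjusted p = 0.0013), and its crypt value of 2.24 missed the threshold (limma adjusted p = 0.0704), which it passed without crypt sample K12 (2.87, limma adjusted p = 0.0127). Slc6a20a differed by 4.13 in villi (limma adjusted p = 0.000839) and 1.59 in crypts (limma adjusted p = 0.0709). The crypt values of Slc3a1 and Slc6a20a passed when villus sample V12 or V41 was left out, which changes the pooled spread but neither group compared. The 4 apical carriers thus had their highest signals in villi, and with all samples none of their crypt values passed the test.

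Slc7a7 was 2.75 higher in villi (limma adjusted p = 0.003), and its crypt value was -0.28 (limma adjusted p = 0.68, 95% interval -1.39 to 0.82). Slc1a5 was the carrier that differed from E12 endoderm in both. It was -1.16 in villi (limma adjusted p = 0.0198) and 1.34 in crypts (limma adjusted p = 0.0185), so E12 endoderm, at 8.54, lay between villi and crypts. The villus call was lost after quantile normalization, at -0.95 (limma adjusted p = 0.0864). The crypt call was lost without crypt sample K21, at 1.22 (limma adjusted p = 0.0592), or K12, at 1.23 (limma adjusted p = 0.0517).

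Slc7a5 showed the same order with no call, at -0.73 in villi (limma adjusted p = 0.12) and 0.86 in crypts (limma adjusted p = 0.102). Its villus value passed without crypt sample K21 (limma adjusted p = 0.0479). Slc7a8 differed by 1.06 in villi (limma adjusted p = 0.266) and -0.10 in crypts (limma adjusted p = 0.929). Slc3a2 differed by 0.73 in villi (limma adjusted p = 0.216) and -0.20 in crypts (limma adjusted p = 0.753), a crypt value whose sign turned after quantile normalization.

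The wider pathway was described with lists of related genes, also chosen with earlier results of these data known. Between villi and crypts, brush border peptidases, which make the substrates of the carriers, were higher in 9 of 9 tested. They were led by the dipeptidyl peptidase Dpp4 (4.37, limma adjusted p = 0.000331), the membrane dipeptidase Dpep1 (3.77, limma adjusted p = 0.000339) and the endopeptidase neprilysin, Mme (3.67, limma adjusted p = 0.000253). Their median was 3.38, against -0.00089 for all genes, of which 16.9% were called higher and 15.0% lower. Mme had a crypt mean of 5.59, under the filter, and was tested through its villus signal, so the count is a description. Of 6 cytosolic peptidases, which finish peptides that Slc15a1 brings in, 4 were higher: Pepd, which splits dipeptides that end in proline (3.17), Cndp2 (2.70), Xpnpep1 (2.50) and Lap3 (2.36). Npepps (0.67, limma adjusted p = 0.141) and Dpp3 (-0.04, limma adjusted p = 0.874) did not pass.

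The scaffolds Pdzk1 (4.68, limma adjusted p = 1.26e-05) and Slc9a3r1 (2.81, limma adjusted p = 0.00154), which hold transporters at the brush border, were higher in villi. So was Atp1b1 (0.95, limma adjusted p = 0.00933), a subunit of the sodium pump that drives sodium-coupled uptake. That made 3 of 3 of the list, where 16.9% of all genes were called higher. Of 5 enterocyte transcription factors, Hnf4g (1.45) and Hnf4a (0.91) were higher and Cdx1 (-1.27) was lower.

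Of 17 other amino acid and peptide carriers tested, 0 were called higher in villi by limma, also at an unadjusted p under 0.05, and 5 were called lower: Slc1a4, a relative of Slc1a5 that exchanges neutral amino acids (-2.25), the glutamine carriers Slc38a2 (-1.48) and Slc38a1 (-1.12), the lysosomal carrier Slc15a4 (-0.62) and Slc7a6 (-0.54), another light chain of Slc3a2. Their median was -0.34. Over all genes, 16.9% were called higher and 15.0% lower in villi. Of 12 genes of the amino acid response with Myc, 4 were lower, namely the serine synthesis enzyme Psat1 (-3.55), the asparagine synthetase Asns (-2.51), the growth regulator Myc (-1.40) and Shmt2 (-1.15). The stress transcription factor Ddit3 was higher (0.81), and the other 7 did not pass, Atf4 among them (-0.45, limma adjusted p = 0.085). Psat1 had a villus mean of 4.58, under the filter, and was tested through its crypt signal, so this count is also a description.

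**Figure D4:**
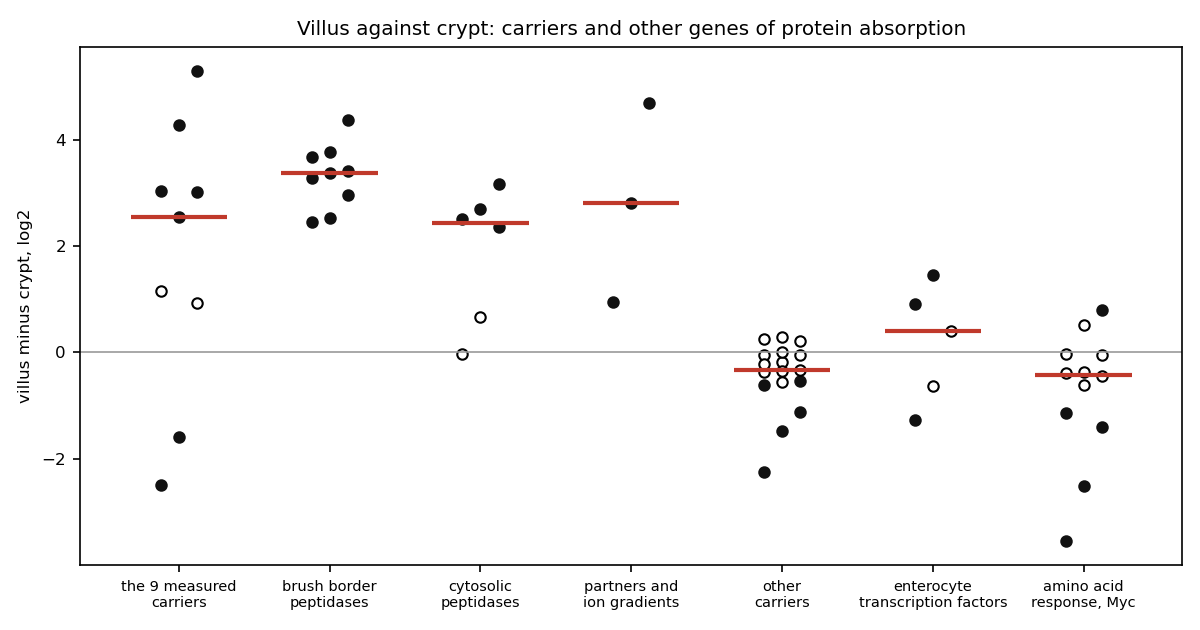
Log2 difference, villus minus crypt, of the 9 measured carriers and of the tested genes of 6 related lists; each point is a gene, filled where the limma adjusted p was under 0.05, and red bars are list medians. Brush border peptidases all lie above 2, with a median of 3.38, while other carriers have a median of -0.34.

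Between the E12 layers, where 27.7% of all genes were called higher and 25.4% lower, the same lists gave a mixed picture. Of 13 other carriers, 6 were higher in endoderm, led by the peptide carrier Slc15a2 (1.91), the glutamine carrier Slc38a1 (1.53) and the taurine carrier Slc6a6 (0.68). The 3 that were lower were Slc38a4 (-1.97), the glycine carrier Slc6a9 (-0.65) and Slc38a5 (-0.46). Brush border peptidases were higher in endoderm in 4 of 6, namely Anpep (3.65), Dpp4 (2.91), Mep1a (1.86) and Enpep (0.65). Cytosolic peptidases were higher in 3 of 6, namely Dpp3 (1.03), Cndp2 (0.70) and Npepps (0.63).

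The partners Atp1b1 (3.27), Cltrn, a membrane protein that pairs with Slc6a19 in mouse kidney (3.13), Slc9a3r1 (2.46) and Pdzk1 (0.97) were higher in endoderm. The transcription factors Cdx2 (5.04), Hnf4a (4.73), Cdx1 (0.78) and Ppara (0.71) were also higher. Slc15a2, Cltrn, Pdzk1 and Cdx1 had mesenchyme means under the filter and were tested through their endoderm signal, so the counts of these lists are descriptions. Among 12 genes of the amino acid response with Myc, Asns (1.54), the serine synthesis enzymes Phgdh (1.46) and Psat1 (0.86), Sesn2 (0.53) and Shmt2 (0.49) were higher in endoderm, and Cebpb (-0.88) was lower. The genes named here beyond the 3 largest changes of a list and direction, and those that did not pass, were chosen after their values were seen.

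Against E12 endoderm, brush border peptidases were higher in villi in 9 of 9 tested, led by Mep1b (7.05), Dpep1 (5.28) and Anpep (4.67). In crypts the count was 1 of 9, Mep1b (3.64). Mme was under the filter in E12 endoderm, at 5.61, so the villus count is a description. Of 17 other carriers, 1 was higher in villi, the glutamate carrier Slc1a1 (2.94), and 4 were lower, with Slc38a1 (-2.18), Slc38a2 (-2.02) and Slc7a6 (-1.82) the largest. Over all genes, 17.0% were called higher and 22.1% lower in villi, so the count of lower carriers was near the background. In crypts 4 were higher, with Slc1a1 (3.31), Slc1a4 (2.11) and Slc6a9 (1.05) the largest, and 2 were lower, Slc7a6 (-1.28) and Slc38a1 (-1.05), where 8.20% of all genes were called higher and 15.1% lower. Slc1a1 was under the filter in E12 endoderm, at 5.72, and was tested through its adult signals.

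Genes with the profile most like a carrier were found by the root mean square difference of centred log2 signals over the 8 arrays of the first table. For Slc7a9 they were the glucose carrier Slc5a1 (0.26), the peptidase Anpep (0.35) and the keratin Krt20 (0.38). For Slc15a1 they were Rdh9 (0.29), Ido1 (0.32) and Bst1 (0.35), for Slc3a1 Asah2 (0.36), Ptprr (0.39) and Sult1b1 (0.43), and for Slc6a20a Cda (0.34), Ms4a10 (0.37) and Reg3a (0.41). Slc7a7 was nearest to Pla2g12b (0.20), Glrx (0.24) and Acsl5 (0.25), and Slc7a8 to the transcription factor Hnf4g (0.32), Cpne2 (0.35) and Slc37a4 (0.36).

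Slc3a2 was nearest to Mov10 (0.24), the granzyme Gzmk (0.26) and Ctsa (0.28). Slc7a5 was nearest to Stk39 (0.20), Pdcd4 (0.22) and Bbip1 (0.23), and Slc1a5 to Habp2 (0.24), Mansc1 (0.38) and the Paneth cell defensin Defa31 (0.38). Among the carriers themselves the closest profiles were those of Slc3a2 and Slc7a8 (0.53), Slc15a1 and Slc3a1 (0.59) and Slc7a5 and Slc1a5 (0.62). In each pair some of the 10082 genes tested were nearer, so these distances do not set the carriers apart. Nearer to Slc3a2 than Slc7a8 were 1531 genes, and nearer to Slc7a8 than Slc3a2 were 69. For Slc15a1 and Slc3a1 the counts were 17 seen from Slc15a1 and 26 from Slc3a1. For Slc7a5 and Slc1a5 they were 1023 seen from Slc7a5 and 55 from Slc1a5. The nearest carrier to Slc7a9 was its heavy chain Slc3a1, at 0.90, with 70 genes nearer.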

How the data were processed

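RNA from 14 samples was measured on single-colour oligonucleotide arrays, with phycoerythrin label. RNA was extracted on columns with DNase, per the labels' protocols. The deposited values are log2 signals in 2 tables, made by the authors with RMA, per the submitters' processing notes, and its version is not given in the sources used here. RMA corrects background, normalizes arrays and summarises probe sets, and it compresses differences of dim genes. Arrays have no read depth, and their number limits the precision.

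Of 22690 probe sets, 20393 had 1 symbol (12394 genes), and a gene was taken from its probe set of highest mean. Genes whose signal exceeded the table's 30th percentile in at least 3 arrays were tested with limma 3.58.1 (lmFit, eBayes) in R 4.3.3 and Benjamini-Hochberg adjustment over all of them. No 2 arrays of a table shared more than 2.95% of values, and 0 columns were left unused. The labels do not tie adult samples of the same number to an animal, so p-values measure the spread between these samples. Same-numbered E12 samples, numbered in the titles, deviated together (correlations 0.21, 0.23 and 0.11 across genes), as did endoderm 3 with mesenchyme 4 (0.13).

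The members and lists were chosen with earlier results of these data known. Named were all members, up to 3 called genes of largest difference per list and direction (the largest difference where none was called), the markers and 3 nearest profiles per member. Of the listed genes, 21 had no probe set of 1 symbol. Alternatives were the choice of probe sets, the filter, quantile normalization, the prior, the replicate block, a joint fit and leaving out each sample.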

Additional observations from a re-analysis of the deposited data

How the results depend on the processing

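Over all comparisons and alternatives, 430 of 447 values of a carrier kept their direction and their side of the threshold, 12 passed it newly, 3 lost it and 2 turned sign. Each carrier had 1 probe set, so its difference was fixed under the choices of probe sets, filter and prior. Under those, only its adjusted p, or whether it was tested, could change. Between villus and crypt, and between the E12 layers, the carriers called kept their calls under each alternative in which they could be tested. Slc7a9, dim in E12 mesenchyme, and Slc3a2 and Slc7a7, through the kind of their probe sets, could not be tested in some. Both turned signs were in crypt against E12 endoderm, neither value called: Slc3a2 at 0.157 after quantile normalization, and Slc7a8 at 0.0619 without crypt sample K12, within -0.239 to 0.0619 when any sample was left out. There, leaving out a sample gave 0 to 3 carriers called, all higher (1 with all samples: 0 without crypt sample K21, 3 without villus sample V12 or V41), and 1340 to 2983 genes of all. In villus against E12 endoderm, 0 carriers were called lower after quantile normalization, and 1 to 2 with a sample left out. Between villus and crypt, 3183 genes were called, 1260 with a replicate block and 1851 to 3069 with a sample left out. The lowest was without crypt sample K21. Only the numbers 12 and 41 of the titles are shared by villus and crypt samples, correlating at 0.16 and 0.07, and whether they share a mouse is not stated in the labels. The block changed the call of no carrier there, and between the E12 layers only that of Slc3a2. The cause of these changes was not tested. Signals near or under the 30th percentile limit what can be said of Slc15a1 in crypts and of Slc15a1, Slc3a1 and Slc6a20a at E12. The same holds for Slc7a9 and Slc7a8 in E12 mesenchyme. The lone E12 endoderm array limits both comparisons with it.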
